A study of Mus musculus with 4 samples.

Results

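Atp1b1, Fxyd2, Slc9a3, Slc4a4 and Car4 were followed across the kidney cell clusters of mice with and without nephrotoxic injury. These are the rows of the deposited table of cluster averages that bear these 5 symbols, of 19632 gene rows in all, and each was read in 23 clusters of 4 mice. The study asked how expression of human KLF6 alters the early response of the proximal tubule to DNA damage. Nuclei of the kidney cortex of male mice of mixed strain were sequenced on the 10x platform, with 1 mouse for each condition. Both control mice carried the TRE-hKLF6 transgene alone, and both hKLF6 OE mice carried CAG-rtTA,TRE-hKLF6, in which the transactivator is driven in all tissues by the CMV enhancer and chicken β-actin promoter. All 4 received doxycycline in the diet, controls included. In each genotype, 1 mouse received 1 injection of aristolochic acid I (AAI, a plant toxin that damages DNA) at 2 mg/kg and was killed after 24 hours, and the other is labelled as having no treatment. The age of the mice is not given in the sources used here. Mouse Klf6 is among the rows, and the human transgene is not.

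The cells of the proximal tubule take back most of the filtered sodium and bicarbonate. The Na+/K+-ATPase on the basolateral side keeps cell sodium low, NHE3 on the apical side trades luminal sodium for protons, carbonic anhydrases speed the conversion of carbon dioxide and bicarbonate on either side of the membrane, and NBCe1 returns bicarbonate with sodium to the blood. Sodium pumping also drives the thick ascending limb and distal tubule, where the pump is densest.

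Each value is taken as a level: the mean, on a linear scale, of counts scaled to 10000 per nucleus, for 1 cluster of 1 mouse. This unit was read from the values, and how they were made is not stated. The numbers of nuclei and counts behind a value are not in the table. The depth of each value is thus unknown, and no interval could be given. The study reports read depth only as a range per cell over the samples. With 1 mouse per condition no difference between conditions could be tested, and every value describes these 4 mice. Differences are on the scale of log2(level + 1), which understates those of low genes. A gene was taken up where the larger level was at least 0.5, and called higher or lower at a difference of 0.2. At these settings, the share of all genes called by the same rule is given beside the counts of the 5 genes. Clusters were formed from the expression of all genes, these included, so differences between clusters are a description.

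In the GENCODE annotation of GRCm38, Atp1b1 spans 21.2 kb (chr1:164437109-164458355, minus strand), Fxyd2 10.6 kb (chr9:45399669-45410278, plus strand) and Slc9a3 48.0 kb (chr13:74121457-74169442, plus strand). Slc4a4 spans 353 kb (chr5:88886818-89239653, plus strand) and Car4 8.26 kb (chr11:84957786-84966044, plus strand). Reads were counted over exons and introns together, so transcripts of 1 gene were not told apart, and levels are not compared between genes of such unequal length.

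RefSeq promoters (GRCm38.p6) were held for 4 of the 5 genes, with 2 start sites for Slc4a4. Both of its promoters lie within the GENCODE span of the gene, 1 near its upstream end and 1 further inside. The promoters of Slc9a3, Slc4a4 and Car4, the genes that were lower in injured clusters or with AAI without being pump subunits, are given here as the 250 bases before the start site on the coding strand. Capitals mark the matches, on either strand, to a GC box (GGGCGG, in 32.7% of 32851 promoters of that length) or an HNF1 half-site (GTTAAT or GTTAAC, in 8.75%). A TATA box (TATAAA, in 12.4%) and an HNF4A core (CAAAGTCCA, in 0.384%) were searched as well, on both strands, and neither matched. No searched motif overlapped another.
Slc9a3, chr13:74121163-74121412: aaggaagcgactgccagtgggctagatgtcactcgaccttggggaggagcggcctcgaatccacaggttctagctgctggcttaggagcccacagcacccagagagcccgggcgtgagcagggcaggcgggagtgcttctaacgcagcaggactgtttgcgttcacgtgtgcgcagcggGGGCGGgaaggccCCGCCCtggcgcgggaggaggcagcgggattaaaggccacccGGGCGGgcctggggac
Slc4a4, upstream start, chr5:88887010-88887259: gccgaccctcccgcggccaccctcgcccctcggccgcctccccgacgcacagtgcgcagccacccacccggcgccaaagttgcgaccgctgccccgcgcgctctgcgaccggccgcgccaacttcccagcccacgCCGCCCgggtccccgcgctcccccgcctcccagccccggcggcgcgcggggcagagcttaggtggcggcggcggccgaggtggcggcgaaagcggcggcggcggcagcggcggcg
Slc4a4, start inside the gene, chr5:89027716-89027965: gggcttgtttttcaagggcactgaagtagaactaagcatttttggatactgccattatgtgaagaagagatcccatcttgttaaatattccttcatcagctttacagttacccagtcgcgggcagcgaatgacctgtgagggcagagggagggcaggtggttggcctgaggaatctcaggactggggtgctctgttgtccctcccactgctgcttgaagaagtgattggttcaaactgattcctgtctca
Car4, chr11:84957504-84957753: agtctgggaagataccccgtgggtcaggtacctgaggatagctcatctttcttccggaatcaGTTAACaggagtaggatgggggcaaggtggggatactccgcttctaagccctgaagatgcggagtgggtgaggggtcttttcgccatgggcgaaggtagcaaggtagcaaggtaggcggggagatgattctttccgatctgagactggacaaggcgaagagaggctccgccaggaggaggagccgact
Slc9a3 had 3 GC boxes, all within 71 bases of the start site. The upstream promoter of Slc4a4, which is 82% G and C, had 1 GC box at 115 bases. The promoter further inside the gene is 48.8% G and C and had no match to any of these motifs. Car4 had no GC box and 1 HNF1 half-site, GTTAAC, which reads alike on both strands, 188 bases before the start. The promoter of Atp1b1 had 2 GC boxes, at 205 and 124 bases.

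Atp1b1 encodes the β1 subunit that brings the catalytic subunit of the Na+/K+-ATPase to the membrane. Its level was highest on average in LH-AL-1, a cluster of the ascending limb of the loop of Henle, at 14.1 in the control mouse, 16.7 in the control mouse with AAI, 15.8 in the hKLF6 OE mouse and 16.5 in the hKLF6 OE mouse with AAI. The DCT cluster of the distal convoluted tubule had 12.6, 15.1, 13.6 and 15.3 in the same order of mice. Podocytes had the lowest mean, with 4.43, 4.14, 5.99 and 3.78. Within a mouse the highest cluster exceeded the lowest by 3.18- to 4.36-fold, so Atp1b1 was found at a moderate level in all clusters. Of the 22 pairs of neighbours in the order by mean, all 22 overlapped in their range over the 4 mice. These ranges pool the 4 conditions and leave out that clusters are paired within a mouse. Within mice, LH-AL-1 exceeded LH-AL-2, the next in the order, in all 4, whereas LH-AL-2 exceeded DCT in 2.

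Fxyd2 encodes the γ subunit, a small protein that tunes the affinity of the pump. It was highest on average in LH-AL-2, with 18.04, 11.13, 16.3 and 9.95, and lowest in PT-S3-2, with 3.38, 2.27, 6.53 and 2.12. All 22 neighbours overlapped here too. The level was 7.82 in the CD_PC cluster of the hKLF6 OE mouse and 8.21 in its podocytes, and 2.86 and 2.01 in the same clusters of the hKLF6 OE mouse with AAI.

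Slc9a3 encodes NHE3. It was highest in LH-AL-2, with 4.50, 4.27, 5.22 and 4.59, and in LH-AL-1, with 4.31, 4.26, 4.34 and 3.64, and was next highest in the proximal tubule cluster PT-S1-S2-1, with 2.53, 2.53, 2.50 and 3.34. The range of PT-S1-S2-1 lay below that of LH-AL-1, and this was the only one of 22 neighbouring pairs that did not overlap. Its level in PT-S3-2 was 0.295, 0.244, 0.196 and 0.255, close to that of CD_PC, which had the lowest mean. The 3 PT-S3 clusters thus ran from PT-S3-1, with 1.93, 2.48, 1.96 and 2.76, down to the level of the collecting duct.

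Slc4a4 encodes NBCe1, the basolateral cotransporter of sodium and bicarbonate. It was highest in PT-S1-S2-1 in each of the 4 mice, with 27.5, 32.9, 21.2 and 26.9, followed by PT-S1-S2-2, with 21.8, 25.0, 17.4 and 20.8, and PT-S3-1, with 16.6, 14.6, 13.8 and 14.1. The ranges of PT-S1-S2-2 and PT-S3-1 did not overlap, unlike those of the other 21 neighbouring pairs. LH-AL-2 had the lowest mean, with 2.50, 2.20, 2.57 and 2.20. Along the proximal tubule its mean over mice ran from 27.1 in PT-S1-S2-1 down to 5.87 in PT-S3-2.

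Car4 encodes carbonic anhydrase IV, which is anchored to the outer face of the membrane. It was low throughout. In the mice without AAI it was highest in InjuredPT-A of the control mouse, at 2.17, and in PT-S3-3 of the hKLF6 OE mouse, at 1.25. The study found the clusters InjuredPT-A and InjuredPT-B almost only in mice with AAI. In InjuredPT-A of the control mouse without AAI, 62.6% of genes were listed at 0. PT-S3-1 had 1.73, 0.617, 1.21 and 0.383, and podocytes had the lowest mean, with 0.311, 0.0234, 0.131 and 0.124. All 22 neighbours overlapped over mice, and in 3 of the 4 mice at least 1 cluster was listed at 0 for Car4.

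**Figure D1:**
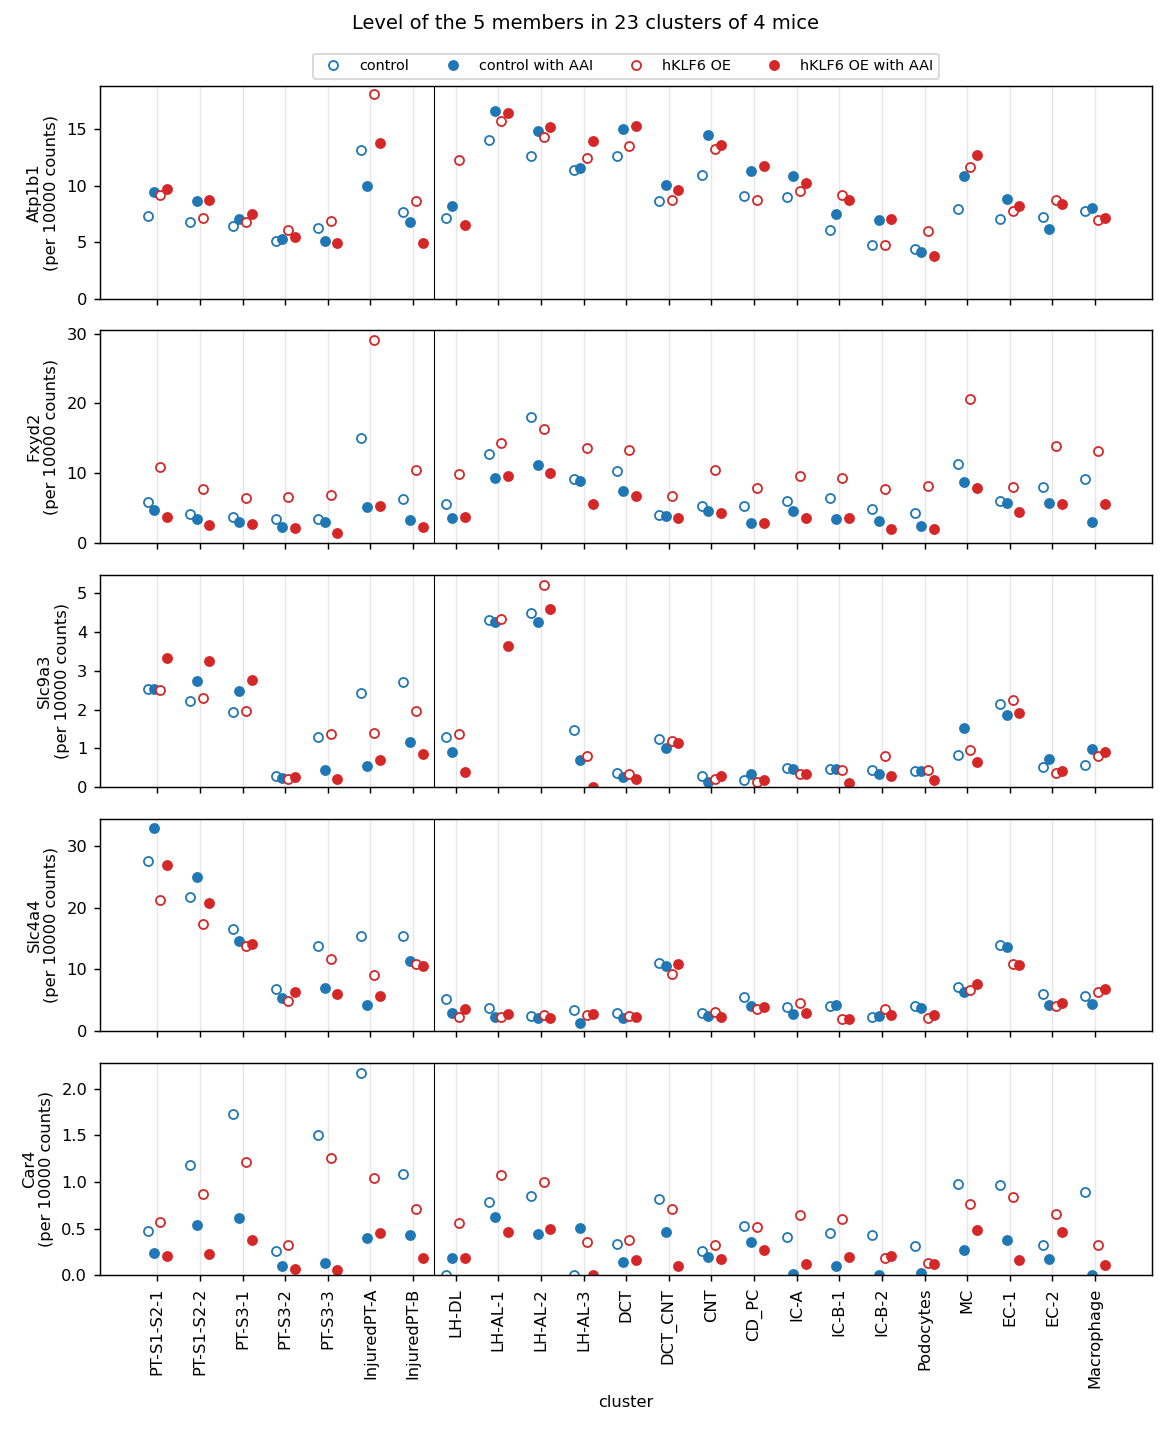
Level of each gene (per 10000 counts, linear axis from 0) in 23 clusters, with 1 point for each of 4 mice and proximal tubule clusters left of the line. Slc4a4 stands highest in PT-S1-S2-1, Slc9a3 in LH-AL-1 and LH-AL-2, and the open red points of the hKLF6 OE mouse without AAI are the highest Fxyd2 values in most clusters.

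Some clusters held markers that go against their names, which bears on levels read in them. In EC-1, named as endothelial, the summed level of the proximal tubule markers was 84.3 to 109 over the 4 mice, against 35.1 to 47.8 in EC-2. DCT_CNT had 76.2 to 95.1. These were the 2 clusters outside the proximal tubule with the most Slc4a4, at a mean of 12.3 in EC-1 and 10.4 in DCT_CNT, and EC-1 also had Slc9a3 at a mean of 2.04. The thick ascending limb, where Slc9a3 was highest, also had its markers in EC-1, with a summed level of 41.9 to 51.7 and Slc12a1 at 27.7 to 38.1. The part of these markers in the levels was not tested.

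Along the normal proximal tubule, 4 of the 4 genes that passed the filter were higher in the 2 PT-S1-S2 clusters than in the 3 PT-S3 clusters in every mouse, and none was lower, where 12.4% of all genes were called higher and 10.4% lower. Slc4a4 was 24.6 against 12.4 in the control mouse, 28.9 against 8.98 with AAI, 19.3 against 10.1 in the hKLF6 OE mouse and 23.9 against 8.86 with AAI, which is a log2 difference of 0.94, 1.59, 0.87 and 1.33. The differences for Slc9a3 were 0.63, 0.83, 0.64 and 1.05. Both were larger in the mice with AAI than in those of the same genotype without. Fxyd2 differed by 0.40, 0.44, 0.43 and 0.41, and Atp1b1 by 0.21, 0.56, 0.27 and 0.55. Median differences over all genes tested were between -0.00 and 0.02. Car4 did not pass the filter in all mice. It was 0.827 in PT-S1-S2 and 1.17 in PT-S3 of the control mouse, but 0.388 and 0.285 in the control mouse with AAI.

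Other genes of the pathway were read from lists. Of the carbonic anhydrases, both that passed were higher in PT-S1-S2. Car12, a membrane-bound enzyme of the basolateral side, was 6.65 against 1.62 in the control mouse, and Car2, the cytosolic enzyme, 1.19 against 0.468. Of the bicarbonate transporters, Slc26a1, an anion exchanger, was the other gene that passed and was higher by 0.32 in the control mouse. Of 13 subunits of the vacuolar proton pump, which acidifies the lumen beside NHE3, 6 were higher and none lower, where 12.4% of all genes were higher and 10.4% lower. Among the exchangers, the sign was divided, with 1 of 3 higher and 1 lower. Of 9 scaffold and regulatory proteins of NHE3, 2 were higher and none lower, and of 4 genes of ammonia production none was called.

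InjuredPT-A, an injured proximal tubule cluster, had less of the carriers Slc9a3 and Slc4a4 than the normal proximal tubule of the same mouse with AAI. It had more of the pump subunits Atp1b1 and Fxyd2. Slc4a4 was 4.26 against 16.96 in the control mouse and 5.76 against 14.9 in the hKLF6 OE mouse, a log2 difference of -1.77 and -1.23. Slc9a3 was 0.534 against 1.69 and 0.686 against 1.96, a difference of -0.81 in both. Both levels were thus 0.251 to 0.387 of the mean of the normal clusters. For Slc9a3 the normal clusters were spread widely, and PT-S3-2, with 0.244 and 0.255, and PT-S3-3, with 0.433 and 0.203, lay below InjuredPT-A in both mice. Atp1b1 was 9.96 against 7.12 and 13.8 against 7.27, higher by 0.43 and 0.84, and Fxyd2 was 5.13 against 3.27 and 5.30 against 2.49, higher by 0.52 and 0.85. Car4 did not pass the filter, with 0.397 against 0.326 and 0.451 against 0.190. Of the 4 genes that passed, 2 were higher and 2 lower in both mice, where 43.3% of all genes were called higher and 27% lower. The median over all genes was 0.19 and 0.15, and centring on it left both counts as they were.

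Other transcripts were higher together with Atp1b1 and Fxyd2. Umod was 7.60 and 9.39 in InjuredPT-A of the control and hKLF6 OE mice with AAI, against 3.17 to 6.94 and 2.65 to 5.53 in their normal clusters, and Slc12a1 was 2.66 and 4.41 against 0.969 to 2.26 and 1.06 to 2.33. The summed level of the whole thick ascending limb list was 12.1 and 15.2 in InjuredPT-A, and 7.58 to 13.1 and 7.18 to 11.6 in the normal clusters, so that the control mouse lay inside its range. This list holds Cldn10, whose highest means over the 4 mice were in PT-S3-1, PT-S1-S2-2 and PT-S3-3, at 4.42, 4.31 and 4.00. The summed connecting tubule list was 5.39 and 9.78, against 1.62 to 4.21 and 2.81 to 5.78. Kap, an androgen-regulated transcript of the proximal tubule that was chosen after its values were seen, was 110.2 and 101.2, against 39.1 to 66.6 and 30.5 to 45.1. The 13 mitochondrially encoded genes, summed, were 184 and 234, against 83.8 to 159 and 62.6 to 143. Their part in the result was not tested. The choice of reference also set part of the size. Against the PT-S1-S2 clusters alone, the difference of Atp1b1 in the control mouse was 0.12, below the threshold. Against normal cells of the uninjured mouse of the same genotype, that of Fxyd2 in the hKLF6 OE mouse turned to -0.47.

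In the second injured cluster, InjuredPT-B, the carriers were also lower, by less. Slc4a4 was 11.38 against 16.96 and 10.6 against 14.9, a difference of -0.54 and -0.45, and Slc9a3 was 1.16 against 1.69 and 0.850 against 1.96, a difference of -0.32 and -0.68. Atp1b1 was 6.80 and 4.98, a difference of -0.06 and -0.47, and Fxyd2 3.33 and 2.29, a difference of 0.02 and -0.08, so neither was called in both mice. Of 4 genes that passed, none was higher and 2 were lower, where 23.4% of all genes were higher and 13.1% lower, with medians of 0.11 and 0.10. These calls rested on the reference. Against the 3 PT-S3 clusters alone, InjuredPT-B had more Slc4a4, with differences of 0.31 and 0.24, and Slc9a3 differed by 0.07 and -0.16, whereas in InjuredPT-A both stayed lower, with differences of -0.92 and -0.55 for Slc4a4 and -0.42 and -0.30 for Slc9a3. The PT-S3 means of both genes were carried by PT-S3-1, with 2.48 and 2.76 for Slc9a3 and 14.6 and 14.1 for Slc4a4. Slc4a4 was 5.42 and 6.39 in PT-S3-2 and 6.93 and 6.07 in PT-S3-3, against 4.26 and 5.76 in InjuredPT-A. Slc9a3 in PT-S3-2 and PT-S3-3 lay below InjuredPT-A in both mice.

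**Figure D2:**
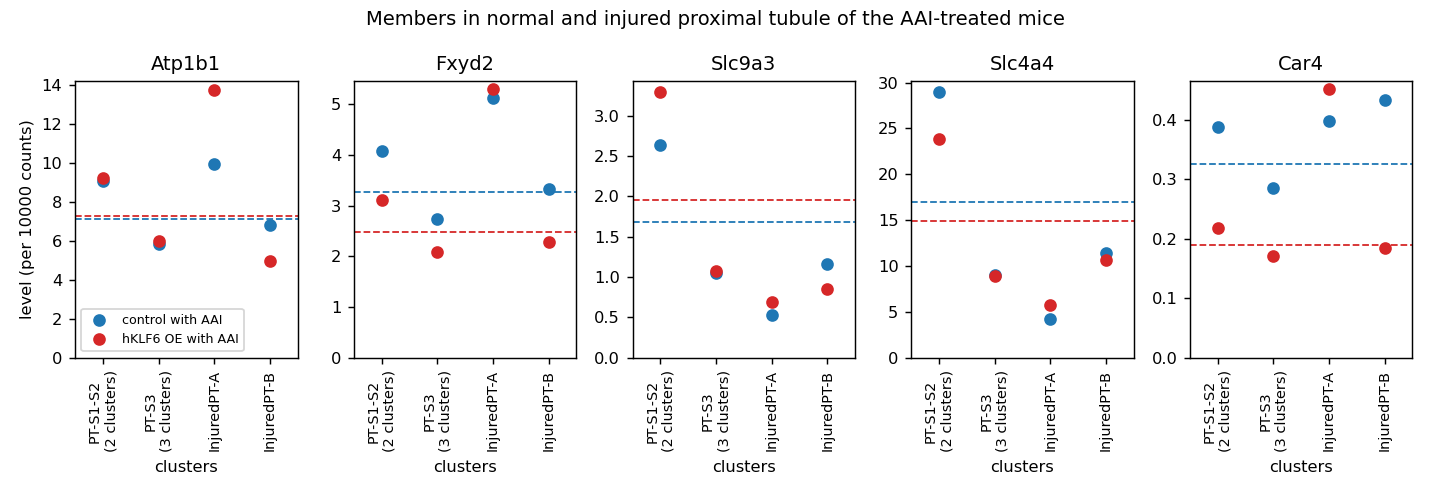
Level of each gene (per 10000 counts, linear axis from 0) in normal and injured proximal tubule of the mice with AAI, where each point is 1 mouse and dashed lines are the mean of the 5 normal clusters of that mouse. Slc4a4 and Slc9a3 in InjuredPT-A lay below the means of both normal groups, although Slc9a3 in PT-S3-2 and PT-S3-3 was lower still, and Slc4a4 of InjuredPT-B lay between PT-S3 and PT-S1-S2.

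The lists around the 5 genes were divided in InjuredPT-A, and their counts stand beside the 43.3% of all genes called higher there and the 27% called lower. Of 4 sodium pump subunits that passed, 3 were higher and 1 lower, so the pump subunits did not move as a whole. Atp1b3, another β subunit, was higher like Atp1b1 and Fxyd2, with 0.733 against 0.305 and 0.943 against 0.324. Of the exchangers, 2 of 3 were lower, Slc9a3 and Slc9a8, an exchanger also found in the proximal tubule, which had 1.31 against 2.17 and 1.25 against 1.96. Of 9 scaffold and regulatory proteins of NHE3, 2 were higher and 4 lower. The largest negative difference was that of Pdzk1, a PDZ scaffold of the brush border, with 1.73 against 6.61 and 2.29 against 7.82, and the largest positive one that of Ahcyl1, also known as IRBIT, which binds NHE3 and NBCe1, with 2.57 against 1.56 and 2.90 against 1.60. Slc4a4 was the only bicarbonate transporter of 16 in the table that passed. Of the carbonic anhydrases 1 of 2 was lower, Car12, with 0.882 against 3.57 and 1.09 against 3.26.

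Pck1, an enzyme of gluconeogenesis and of ammonia production in the proximal tubule, was lower in InjuredPT-A, with 2.31 against 4.77 and 5.10 against 10.0. Glud1, glutamate dehydrogenase, was not called. Of 16 subunits of the vacuolar proton pump, 12 were higher and 2 lower, with a list median of 0.40 in the control mouse, where 43.3% of all genes were higher and 27% lower with a median of 0.19. Atp6v1b2, a subunit found in most tissues, was 5.78 against 2.37 and 4.30 against 2.19. Atp6ap1, an accessory subunit, was higher by 0.93 and 0.88, and Atp6v0b by 0.92 and 0.88. The subunit with the highest level in normal cells, Atp6v0a4, an isoform found mainly in kidney epithelia, was 1.04 against 5.72 and 1.33 against 5.49. In InjuredPT-B, 3 of 13 subunits were higher and 1 lower, where 23.4% of all genes were higher and 13.1% lower. The lower subunit was again Atp6v0a4, with differences of -0.56 and -0.72. There Pdzk1 differed by -0.60 and -1.05, and Car12 by -0.76 in both mice.

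With AAI, Car4 was lower in the normal proximal tubule of both genotypes. It was 1.03 without and 0.326 with AAI in the control mice, and 0.845 and 0.190 in the hKLF6 OE mice, a difference of -0.61 and -0.63, which leaves 0.317 and 0.225 of the level. Fxyd2 was 4.13 without and 3.27 with AAI in control mice, a difference of -0.26, and 7.71 and 2.49 in hKLF6 OE mice, a difference of -1.32. The remaining genes moved by less than the threshold in the mean of the 5 clusters. Atp1b1 differed by 0.13 and 0.01, Slc9a3 by 0.02 and 0.15, and Slc4a4 by -0.03 and 0.10. Car4 passed the filter through the mice without AAI alone and is left out of the counts. Of the other 4 genes, 1 was lower and none higher in each genotype, where 11.25% of all genes were lower and 11.72% higher in control mice and 15.4% and 19.5% in hKLF6 OE mice. Median differences over all genes were 0.01 and 0.05.

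The small differences of Slc4a4 and Slc9a3 in that mean were made of opposite ones. In the PT-S1-S2 clusters Slc4a4 was higher with AAI, from 27.5 to 32.9 in PT-S1-S2-1 of the control mice and from 21.2 to 26.9 in the hKLF6 OE mice, and over both clusters by 0.22 and 0.29. In PT-S3-3 it was 13.8 without and 6.93 with AAI in control mice and 11.8 and 6.07 in hKLF6 OE mice, a difference of -0.90 and -0.85. Slc9a3 in PT-S3-3 was 1.29 without and 0.433 with AAI, and 1.38 and 0.203, a difference of -0.68 and -0.98. In PT-S3-1, in contrast, it was 1.93 without and 2.48 with AAI, and 1.96 and 2.76, a difference of 0.25 and 0.35. Each of these directions was thus seen in both genotypes, which share no mice. For Slc9a3 in PT-S3-3, only the mice without AAI reached the minimum level of the filter. The other PT-S3 clusters did not follow PT-S3-3 for Slc4a4 in both genotypes. It differed by -0.28 in control and 0.33 in hKLF6 OE mice in PT-S3-2, and by -0.17 and 0.03 in PT-S3-1. Whether the directions differ between clusters beyond the spread of mice could not be tested.

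In PT-S3-3 all 5 genes had lower values with AAI in both genotypes. Car4 was 1.51 without and 0.136 with AAI in control mice, and 1.25 and 0.0605 in hKLF6 OE mice. Atp1b1 was 6.30 and 5.09, and 6.90 and 4.97, a difference of -0.26 and -0.40. Fxyd2 was 3.48 and 3.01, and 6.92 and 1.45, a difference of -0.16 and -1.69. Car4 and Slc9a3 reached 0.5 there without AAI alone. Of the other 3 genes, 2 were called lower in control mice and 3 in hKLF6 OE mice, and none was higher, where 18.6% and 21% of all genes were lower and 23% and 29.1% higher. In the PT-S1-S2 clusters, again without Car4, 2 of 4 were higher and 1 lower in each genotype, where 11.7% and 17.4% of all genes were higher and 11% and 15.7% lower. The summed level of the proximal tubule markers in PT-S3-3 was 131 without and 91.1 with AAI in control mice and 99.2 and 94.9 in hKLF6 OE mice, and Slc34a1, the phosphate carrier of the brush border and 1 of these markers, was 56.8 without and 9.94 with AAI, and 41.8 and 4.16. The share of genes listed at 0 in PT-S3-3 was 21.5% and 31.3%, and 22.2% and 30.4%. Their part in the result was not tested.

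**Figure D3:**
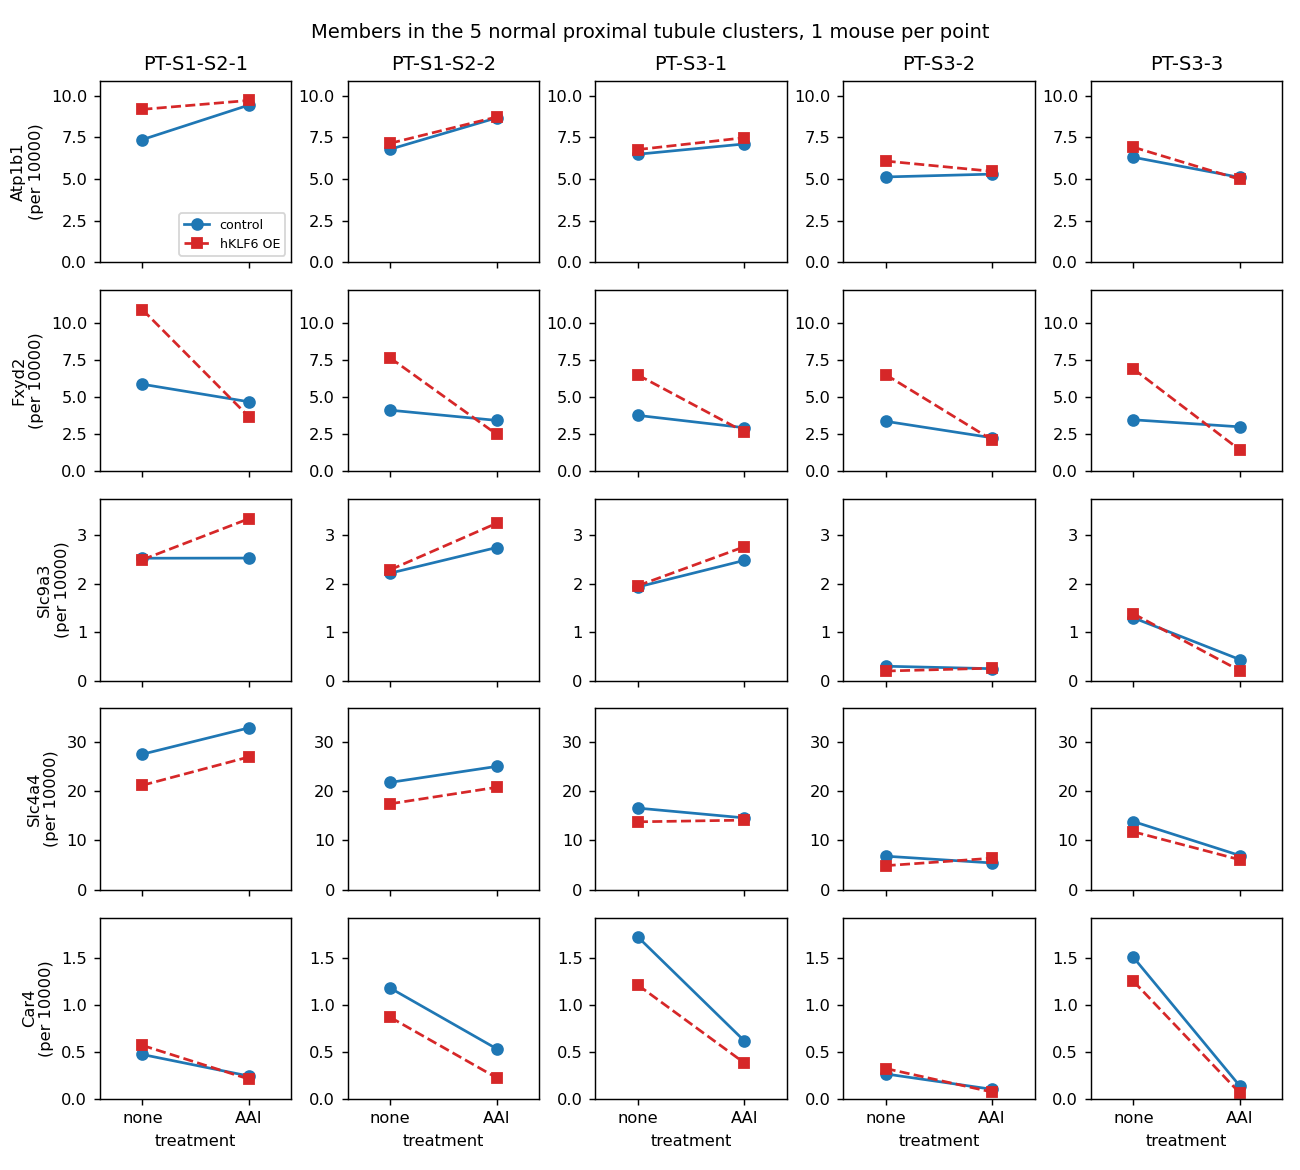
Level (per 10000 counts, linear axis from 0) of each gene, by row, in the 5 normal proximal tubule clusters, by column, without and with AAI, where each point is 1 mouse and lines join mice of 1 genotype. Slc4a4 was higher with AAI in the PT-S1-S2 clusters and lower in PT-S3-3 in both genotypes, and Car4 was lower with AAI in all 5 clusters.

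Beyond the proximal tubule, each gene was compared in each of the 23 clusters. Of all pairs of a gene and a cluster, 27.6% were higher and 25.2% lower with AAI in control mice, and 31.6% and 26.2% in hKLF6 OE mice. Fxyd2 was lower in 18 of 23 clusters of control mice and in 23 of 23 of hKLF6 OE mice, and higher in none, with median differences of -0.42 and -1.19. As many lower clusters were reached by 3.08% and 1.99% of the genes that passed in all clusters. Car4 was at 0.5 or more with AAI in 4 clusters of the control mouse and in none of the hKLF6 OE mouse, so nearly all clusters passed through the mouse without AAI and no count is read from them. Both mice reached 0.5 for Car4 in 3 clusters of control mice, of which 2 were lower and 0 higher. In hKLF6 OE mice this held in 0 clusters. Atp1b1 was higher in 13 and lower in 3 of 23 clusters of control mice, and higher in 3 and lower in 5 of hKLF6 OE mice. In control mice, its largest differences were 0.47 in IC-B-2 and -0.37 in InjuredPT-A.

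Slc4a4 was higher in 1 and lower in 13 clusters of control mice, and higher in 6 and lower in 5 of hKLF6 OE mice. Over the 14 and 11 clusters in which both mice reached 0.5, Slc9a3 was higher in 4 and lower in 4, and higher in 3 and lower in 4. In both AAI comparisons Fxyd2 differed most in InjuredPT-A, with differences of -1.39 and -2.26. In InjuredPT-A, 62.6% and 40.8% of genes were listed at 0 in the control and hKLF6 OE mice without AAI, against 22.5% and 22.2% with AAI, and the part of this in the differences was not tested.

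**Figure D4:**
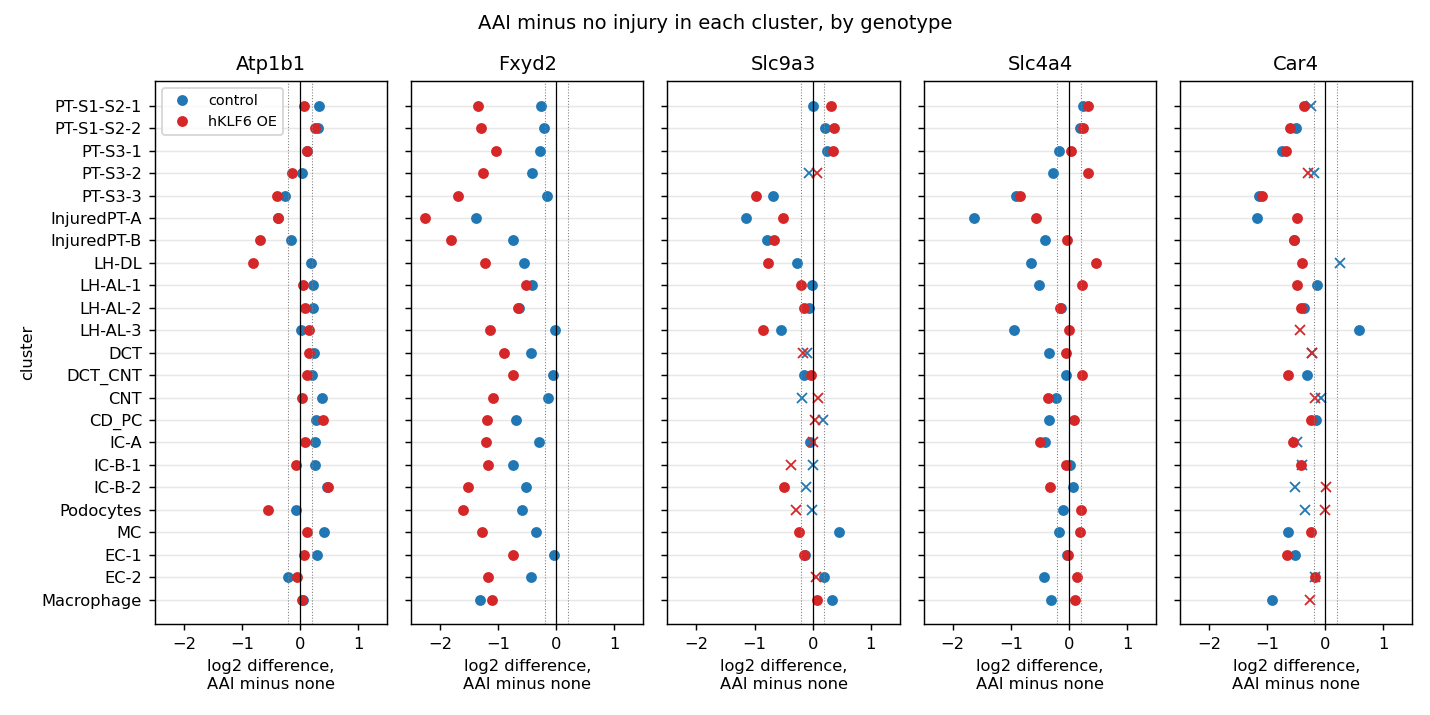
Difference of log2(level + 1), AAI minus no injury, in 23 clusters for control (blue) and hKLF6 OE (red) mice, where crosses mark clusters that did not pass the filter and dotted lines the threshold of 0.2. Fxyd2 lies left of 0 in all 23 clusters of both genotypes, and Atp1b1, Slc9a3 and Slc4a4 lie on both sides.

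Other transcripts were also lower with AAI in most clusters. The 13 mitochondrially encoded genes, summed, were lower with AAI in 21 of 23 clusters of control mice and 23 of 23 of hKLF6 OE mice, with median differences of -0.70 and -1.19. Kap was lower in 20 and 23 clusters. In podocytes, which should lack it, Kap was 73.7, 50.6, 111 and 32.8 in the 4 mice, and Fxyd2 was 4.25, 2.49, 8.21 and 2.01. The order of the mice was the same for both. The part of free RNA or of mitochondrial RNA in the Fxyd2 values was not tested.

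hKLF6 OE without injury differed from control without injury mainly in Fxyd2 and Slc4a4. Fxyd2 was 7.71 against 4.13 in the normal proximal tubule, higher by 0.76, and Slc4a4 was 13.8 against 17.3, a difference of -0.31. Atp1b1 differed by 0.15, Slc9a3 by 0.01 and Car4 by -0.14. Of 5 genes 1 was higher and 1 lower, where 7.84% of all genes were higher and 9.33% lower, with a median of -0.03. Slc4a4 was lower in all 5 normal clusters. This comparison shares the hKLF6 OE mouse with the AAI comparison of that genotype, and the control mouse with that of the control genotype.

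By cluster, Fxyd2 was higher in 21 of 23 clusters of the hKLF6 OE mouse, as it was in 2.06% of genes, and Slc4a4 lower in 16 of 23, as in 2.56%, where 22.4% of all pairs of gene and cluster were higher and 27.4% lower. The exceptions for Fxyd2 were LH-AL-1, at 14.3 against 12.7, and LH-AL-2, at 16.3 against 18.04, where the difference was below the threshold. Kap and the summed mitochondrially encoded genes were higher in 23 and 21 of 23 clusters. Atp1b1 was higher in 9 clusters and lower in none. Where both mice reached 0.5, Car4 was higher in 1 and lower in 4 of 11 clusters, and Slc9a3 higher in 1 and lower in 3 of 14. The largest difference of Slc4a4 was -0.91 in LH-DL, a cluster at a low level of 2.34 against 5.27. There 42.5% of genes were listed at 0 in the hKLF6 OE mouse and 60.7% in the control mouse. Of the pathway lists, Pck1 in the normal proximal tubule was 9.79 against 4.02, higher by 1.10.

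Between the mice with AAI, Fxyd2 was the 1 gene past the threshold. It was 2.49 in hKLF6 OE against 3.27 in control, a difference of -0.29 that is opposite to the one without injury, and Slc4a4 was 14.9 against 16.96, a difference of -0.18. Atp1b1 differed by 0.03 and Slc9a3 by 0.14, and Car4, which did not pass, was 0.190 against 0.326. Of the 4 genes that passed, none was higher and 1 was lower, where 6.32% of all genes were higher and 7.74% lower, with a median of 0.01. By cluster, Fxyd2 was higher in 1 and lower in 9 of 23, Slc4a4 higher in 7 and lower in 5, Atp1b1 higher in 5 and lower in 2, and Slc9a3 higher in 1 and lower in 2 of the 11 in which both mice reached 0.5, where 20.8% of all pairs were higher and 23.8% lower. Kap was lower in 19 and higher in 1 of 23 clusters, and the summed mitochondrially encoded genes were lower in 9 and higher in 4. Slc4a4 was 5.76 against 4.26 in InjuredPT-A. Atp1b1 in InjuredPT-A was 13.8 against 9.96, its largest difference at 0.43.

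The genes most alike each of the 5 were sought over the 92 columns of clusters and mice, by Pearson's r of log2(level + 1) among 4164 genes with a level of at least 2 in some column. Columns of 1 mouse share a library, and r is given as a description. Slc4a4 was most like Dab2 (r = 0.94), Kcnj15 (r = 0.93) and Fut9 (r = 0.92), and among the 3 most like Atp1b1 were Kcnj1 (r = 0.76) and Tfap2b (r = 0.73). Dab2 is an adaptor of endocytosis in the proximal tubule, and Kcnj1 encodes the ROMK channel of the thick ascending limb. For Fxyd2 they were Ly6a (r = 0.83), mt-Co3 (r = 0.82) and mt-Nd3 (r = 0.81), of which the latter pair are encoded in the mitochondrion. For Slc9a3 they were Slc16a12 (r = 0.75), Enpp2 (r = 0.73) and Plcb1 (r = 0.73), and for Car4 they were Cndp2 (r = 0.76), Lpl (r = 0.75) and Serpinf2 (r = 0.72). Among the 5 genes themselves, r was 0.58 between Atp1b1 and Fxyd2 and -0.28 between Atp1b1 and Slc4a4.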

How the data were processed

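Single-nucleus RNA-seq of 4 mice was used. The deposited signal values were made by the authors: Cell Ranger counted reads over exons and introns (build mm10, per the labels), nuclei were filtered and clustered in Seurat, and counts scaled to 10000 per nucleus were averaged by cluster and mouse. The unit was read from the values, since each of 92 columns sums to 10000. Doublet removal for these data and the nuclei per column are not given in the sources used here. Read depth is reported by the study as a range per cell over the samples, not by column. The precision of each value is therefore unknown. Of 19632 rows, 23 with date-like names were left out. Cluster names were assigned by the sheet order of the study's marker table and checked on marker levels. The normal proximal tubule was the unweighted mean of 5 clusters. Of these, PT-S3-3 had Slc34a1 at 9.94 and 4.16 in the control and hKLF6 OE mice with AAI, and PT-S3-2 at 6.32 and 5.35. Both lay below InjuredPT-A, at 13.4 and 22.8, and InjuredPT-B, at 15.1 and 9.30.

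A gene was called when, in every pair of levels compared, the larger reached a minimum of 0.5 and the levels differed by 0.2 in 1 direction on log2(level + 1). With 1 mouse per condition, no statistical test between conditions was made. The 5 genes, 7 pathway lists and 13 marker lists were chosen with earlier results of these data known. Of 99 pathway genes 92 were in the table. Named genes were the 5 members, the highest, most raised and most lowered of each list, and the 3 most alike, apart from genes not reported here. Others, named where a count turned on them, were chosen after their values were seen. Other settings tried were thresholds of 0.5 and 1, a pseudocount of 0.1, a minimum of 2 or none, centring, leaving out mitochondrially encoded genes, other references and single mice. The script that makes the calls was checked on simulated levels. Python 3.11.15, numpy 2.4.6, pandas 2.3.3 and matplotlib 3.10.9 were used.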

Additional observations from a re-analysis of the deposited data

Results flagged for a closer look

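The results below had opposite signs, each past 0.2 on log2(level + 1), in the genotypes or treatments compared. Each side is 1 mouse against 1 mouse, both comparisons of a pair can share mice with other pairs, and the difference between the signs was not tested. The injured clusters were found almost only in mice with AAI. Without AAI, 62.6% and 40.8% of genes were listed at 0 in InjuredPT-A of the control and hKLF6 OE mice, and 51.3% and 55.7% in InjuredPT-B. In the order control, control with AAI, hKLF6 OE and hKLF6 OE with AAI, LH-DL had 60.7%, 52.5%, 42.5% and 52.6%. LH-AL-3 had 62.0%, 60.5%, 63.4% and 61.5%, and IC-B-2 46.3%, 50.0%, 53.0% and 50.5%. LH-DL also held the podocyte marker Nphs1, at 0.763, 2.67, 0 and 3.00. The part of these in the differences was not tested.

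Fxyd2 was higher in hKLF6 OE than in control without injury and lower with AAI. The differences were 0.76 and -0.29 in the mean of the 5 normal clusters, 0.79 and -0.28 in PT-S1-S2-1, 0.76 and -0.34 in PT-S1-S2-2, 0.82 and -0.71 in PT-S3-3, and 0.66 and -0.40 in InjuredPT-B. They were 0.36 and -0.34 in EC-1, 0.81 and -0.21 in podocytes, 0.60 and -0.31 in IC-A, 0.56 and -0.45 in IC-B-2, and 0.53 and -0.58 in LH-AL-3. Atp1b1 in LH-DL had 0.71 and -0.29. Kap also changed sign, being higher in 23 of 23 clusters without injury, and lower in 19 and higher in 1 with AAI. The summed mitochondrially encoded genes were higher in 21 of 23 without injury, and lower in 9 and higher in 4 with AAI. The part of such transcripts in the Fxyd2 values was not tested.

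Slc4a4 had the opposite pair of signs, lower in hKLF6 OE without injury and higher with AAI. The differences were -0.41 and 0.20 in PT-S3-2, -0.71 and 0.36 in InjuredPT-A, -0.55 and 0.20 in LH-AL-1, -0.91 and 0.21 in LH-DL, and -0.25 and 0.70 in LH-AL-3. Read as AAI against no injury in control and then in hKLF6 OE mice, Slc4a4 had -0.28 and 0.33 in PT-S3-2, -0.52 and 0.23 in LH-AL-1, and -0.66 and 0.46 in LH-DL. Slc9a3 in MC had 0.46 and -0.24 in that comparison.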

How the results depend on the processing

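No paired analysis was possible because each condition has 1 mouse, and replicates could not be left out. Of 239 differences of the 5 genes recomputed under other settings, 191 moved by less than 0.2, 44 moved by more without a called sign turning, and 4 turned: Fxyd2 in InjuredPT-A of hKLF6 OE mice to -0.47 against the uninjured mouse, and in InjuredPT-B against PT-S3 Slc9a3 of control mice to 0.073 and Slc4a4 to 0.31 and 0.24. The counts moved as follows, and the cause was not tested beyond the construction of each setting. No share of all genes called under the same setting is given beside them, so they are not read against a background. Car4 is kept in the counts with AAI, although it passed the filter through the mice without AAI alone. With Car4 kept, 2 genes were lower with AAI in each genotype at the main settings.

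With a threshold of 0.5, the number higher became 1 in InjuredPT-A and 2 in PT-S1-S2, and the number lower 0 in InjuredPT-B, 1 with AAI in control mice, and 0 in both genotype comparisons. That 1 gene with AAI in control mice was Car4, at -0.61, whereas Fxyd2, at -0.26, was no longer called. With a threshold of 1, the number higher became 0 in InjuredPT-A, in hKLF6 OE without injury and in PT-S1-S2, and the number lower 1 in InjuredPT-A, 0 in InjuredPT-B, 0 and 1 with AAI in control and hKLF6 OE mice, and 0 in both genotype comparisons. A minimum of 2 left 1 lower in each injured cluster and in each AAI comparison. A pseudocount of 0.1 gave 1 higher with AAI in hKLF6 OE mice, 2 lower in hKLF6 OE without injury, and 1 higher in hKLF6 OE with AAI.

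Against PT-S1-S2, 1 was higher in InjuredPT-A and 4 lower in InjuredPT-B, and against PT-S3, 1 was higher and 0 lower in InjuredPT-B. Against the uninjured mouse, 1 was higher in InjuredPT-A and 4 lower in InjuredPT-B. In the PT-S1-S2 clusters alone, 2 were higher with AAI in each genotype, and 1 was higher and 2 lower in hKLF6 OE with AAI. In the control mouse alone, 1 gene was lower in PT-S1-S2 than in PT-S3. Over the 46 columns without AAI, the 3 most alike genes kept 1 of 3 for Atp1b1 and Slc9a3 and 0 for Fxyd2, Slc4a4 and Car4. Over all genes, a minimum of 2 lowered the numbers called most, from 2167 to 439 higher in InjuredPT-A.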
